A study of Homo sapiens with 11 samples.

Results

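The proteasome subunit genes were followed in human embryonal carcinoma cells in which L1TD1 was knocked down with doxycycline. All probes whose annotated gene symbol begins with PSMA, PSMB, PSMC, PSMD or PSME and a digit were taken, without PSMB8, PSMB9 and PSMB10, which gave 59 of the 48803 probes on the array. They belong to 39 genes. Of these, 36 genes with 54 probes are subunits, activators or assembly factors of the proteasome, and 3 genes with 5 probes are no subunits but carry the letters in their symbol. Requiring detection (p below 0.01) in 5 or more samples left 46 probes of 34 proteasome genes, 13 in the core particle, 17 in the regulatory particle and 4 activators. Of the 40 subunit genes listed, 36 had a probe by annotated symbol. The other 4 were not analysed here, and PSMA8 and PSMB11 had a probe but were not kept. For gene counts the kept probe with the highest mean stands for its gene, as for all 9854 genes with a kept probe.

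The proteasome is the protease that degrades proteins marked with ubiquitin. Its core particle is a barrel of alpha rings, which gate entry, around beta rings, which hold the cutting sites, and regulatory particles at the ends of the barrel bind, unfold and feed in the substrate. Separate activator caps of the PSME group can take the place of a regulatory particle. The subunits are made in fixed proportions, and many of their genes respond together to the transcription factor NFE2L1 when protein degradation is impaired. Pluripotent cells are known for high proteasome activity.

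Total RNA from day 6 of NT2D1 cells, an established human embryonal carcinoma line, was hybridised to Illumina bead arrays, 1 array per sample. All cells, controls included, stably expressed TetR3, a tetracycline repressor, and L1TD1shRNA, a short hairpin RNA against L1TD1, which codes for an RNA-binding protein found in pluripotent cells. There were 6 dox-induced samples (3 with the title prefix 5 and 3 with the title prefix 1) and 5 non-induced samples (2 with the prefix 5 and 3 with the prefix 1). The design text describes clones with an induced and a non-induced sample each, and a sample that did not cluster with its group was excluded by the submitters. The file headers carry the prefix in the name of an shRNA, followed by a number that differs in each sample. A difference between the prefixes therefore cannot be told apart from a difference between hairpins or between the clones under each. No non-induced sample without the hairpin and no doxycycline-treated sample without it was analysed here.

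L1TD1, the targeted gene, had a mean log2 level of 7.84 ± 0.37 in dox-induced samples (SD, n = 6) and 8.74 ± 0.17 in non-induced samples (SD, n = 5), a difference of -0.91 ± 0.18 (SE) that leaves 53.4% (exact two-sided permutation p = 0.00433, limma adjusted p = 0.0753). Of 12 listed embryonal carcinoma markers 11 had a probe and 10 were kept, and ZFP42 was detected on no array. Between 13301 and 15127 probes per array were above background. Mean raw intensity was 373 ± 26.8 in dox-induced samples (SD, n = 6) and 427 ± 29.2 in non-induced samples (SD, n = 5; exact two-sided permutation p = 0.0152), and it was highest in non-induced samples 1 and 3, at 461.3 and 453.3. In total RNA of whole cultures, fewer cells of a type and less RNA per cell cannot be told apart.

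Over all 11 samples, no proteasome gene passed the test of dox-induced against non-induced cells, while most differences lay slightly below 0. Of the 34 genes 26 were below 0, which is 76.5% against 48.3% of all genes. The median difference was -0.18 for the core, -0.12 for the regulatory particle and -0.03 for the activators, against 0.01 over all genes (log2, dox-induced minus non-induced). Without non-induced samples 1 and 3 together, an alternative chosen after seeing the data, these medians were -0.05 for the core and 0.003 for the regulatory particle. By limma with Benjamini-Hochberg adjustment over all 14338 kept probes, 0 of 46 proteasome probes had an adjusted p under 0.05, where 0.0418% of all kept probes did. At an unadjusted p under 0.05, 5 probes were lower, or 10.9% against 8.31% of all kept probes, and 0 were higher, against 7.93%. In no proteasome gene did all dox-induced samples lie apart from all non-induced samples; 0.964% of all genes lay wholly below and 1.04% wholly above. Taken per sample, the median over the core genes had a standard deviation within groups of 0.14, and that over the regulatory particle genes 0.13.

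The 2 title prefixes were then taken apart. In prefix 5, the median difference was 0.03 for the core and 0.08 for the regulatory particle, and 13 of 34 genes were below 0 (38.2%, against 48.4% of all genes). The sign of these medians turned with 1 sample: the core was at -0.03 without dox-induced sample 6 and -0.01 without non-induced sample 5, and the regulatory particle at -0.005 without non-induced sample 4. In prefix 1, the median difference was -0.29 for the core and -0.31 for the regulatory particle, and 29 of 34 genes were below 0 (85.3%, against 50% of all genes, whose median was 0.00). The core median there was -0.12 without non-induced sample 3 and -0.46 without non-induced sample 2. By limma 0 of 46 probes passed in prefix 5 (0% of all kept probes) and 1, of PSMD11, was above 0 at an unadjusted p under 0.05, where 2.71% of all kept probes were. In prefix 1, 2 of 46 passed, which is 4.35% against 4.87% of all kept probes and so near the background. Both of these are probes of the activator gene PSME3. At an unadjusted p under 0.05, 13 probes were lower in prefix 1 (28.3%, against 12% of all kept probes) and 1, of PSME1, was higher, also against 12%.

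In prefix 1, a pair of non-induced samples stood high. Each gene was set against its own mean over the 11 samples, and the median of these deviations was taken per sample. In prefix 1 the core deviated by -0.12, -0.23 and -0.06 in dox-induced samples 1 to 3, and by 0.21, -0.07 and 0.35 in non-induced samples 1 to 3. Non-induced samples 1 and 3 were thus high and non-induced sample 2 lay within the range of the dox-induced samples. The regulatory particle deviated by -0.21, -0.12 and -0.07 in dox-induced samples 1 to 3, and by 0.12, -0.04 and 0.32 in non-induced samples 1 to 3, with the same samples high. In prefix 5 the core deviated by 0.07, 0.01 and -0.05 in dox-induced samples 4 to 6, and by -0.01 and -0.02 in non-induced samples 4 and 5. The regulatory particle there deviated by 0.04, 0.09 and 0.00 in dox-induced samples and by -0.02 and -0.01 in non-induced samples.

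**Figure D1:**
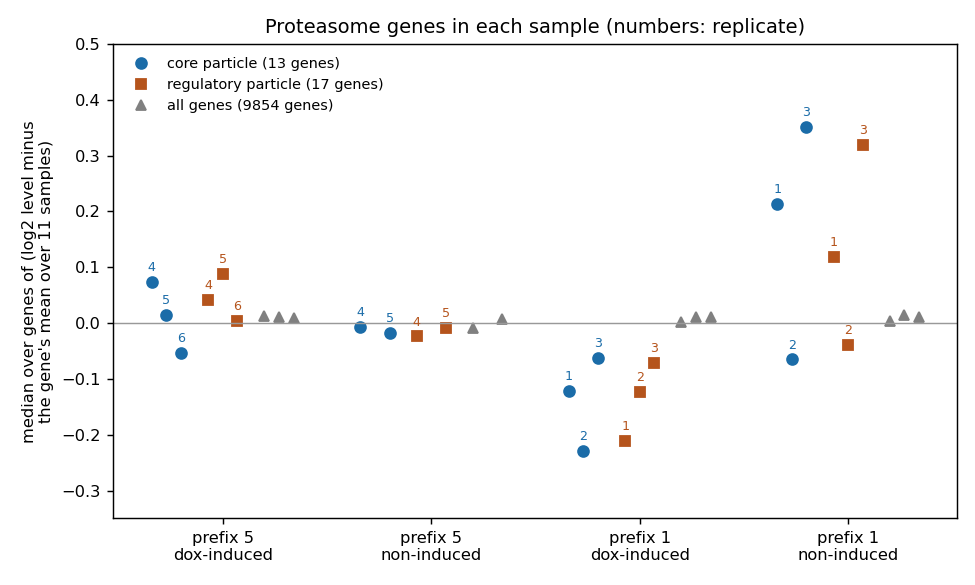
Median deviation of the 13 core genes (circles), the 17 regulatory particle genes (squares) and all 9854 genes (triangles) in each sample, as the log2 level minus the gene's mean over 11 samples; numbers beside the points are replicates. Non-induced samples 1 and 3 of prefix 1 stand highest, at 0.21 and 0.35 for the core, and the 5 samples of prefix 5 lie near 0.

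The same pair of samples had the highest mean raw intensity of all arrays. Among the 1209 genes with a mean log2 level above 11, where 17 of the 34 proteasome genes lie, the median difference in prefix 1 was -0.001, against -0.29 for the 17 proteasome genes. Quantile normalisation gives all arrays the same distribution, so a median near 0 for bright genes was largely set by the method. It is therefore no check on raw intensity. Leaving out both non-induced samples 1 and 3 moved the prefix 1 median to -0.07 for the core and to -0.14 for the regulatory particle. Only non-induced sample 2 was then left in prefix 1, and its core lay within the range of the dox-induced samples. Smaller medians were thus largely set by dropping the high samples, and no test is given for this setting. Of the embryonal carcinoma markers 8 of 10 were below 0 in prefix 1, with a median difference of -0.30. In 5 of them (50%, against 14.6% of all genes), L1TD1 included, all dox-induced samples lay below all non-induced ones there, and in 0 above. The 34 proteasome genes had 35.3% and a median of -0.28, so lower levels in prefix 1 were not particular to them. The summed normalised intensity of these markers, which weighs the brightest most, was 40000 to 42800 in dox-induced and 40900 to 47500 in non-induced samples of prefix 1. All 3 kept fibroblast markers of 6 listed were below 0 there, with sums of 1560 to 2810 in dox-induced samples and 2070 to 3040 in non-induced samples, and DCN was detected on no array. COL3A1 and a probe of LUM, not kept, were detected in 0 of 6 dox-induced and 2 of 5 non-induced samples. The 3 kept neuron markers were all below 0 in prefix 1 too, and summed to 3530 to 4390 in dox-induced and 3380 to 4930 in non-induced samples there. In prefix 5 the neuron sums did not overlap, at 2060 to 2700 in dox-induced and 3000 to 3460 in non-induced samples, while those of the other marker lists did. Most of this sum was TUBB3, at a mean log2 level of 11.08 in dox-induced and 11.53 in non-induced samples of prefix 5. With 3 samples against 2 there, TUBB3 and MAP2 were wholly below, as were 10.9% of all genes, and DCX was not. Of the blood markers only CD14 was kept, at 52.7 to 78 in dox-induced and 32.9 to 70.3 in non-induced samples of prefix 1, and CD3E, HBB and PTPRC were detected on no array. The part of raw intensity and of these markers in the proteasome values was not tested.

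Promoter sequence of the same genes was also described. The shares of all genes with a promoter take in genes with no kept probe, and a link between motifs and differences was not tested. RefSeq promoters on GRCh38.p14, each with 250 bases before and 50 after the start of a gene, were found for 30 of the 34 genes, and 6 motifs were searched on both strands, none of which contains another. The core of the antioxidant response element, TGACNNNGC, at which NFE2L1 is known to bind, occurred in 11 of the 30 genes (36.7%, against 16.1% of all genes with a promoter). The CCAAT box occurred in 15 (50% against 39.7%), the GC box GGGCGG in 19 (63.3% against 48.3%), the nuclear respiratory factor 1 site in 4 (13.3% against 7.0%), TTTGAA, the core of the cell cycle homology region, in 5 (16.7% against 18.2%), and TGATGNAA, the core of the CHOP-ATF4 composite element, in 0 (0.0% against 4.5%). A match describes letters only and is no evidence of binding.

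The following windows of 70 bases show a match in 3 genes for the first motif and in 3 for the second, chosen after values and matches were seen from the core, the regulatory particle and the activators. They are written on the strand of the gene, with the matching letters in capitals. The first 3 hold the antioxidant response element core, 126, 104 and 37 bases before the start.
PSMA4: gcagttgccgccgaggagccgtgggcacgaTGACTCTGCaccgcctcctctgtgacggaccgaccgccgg
PSMB3: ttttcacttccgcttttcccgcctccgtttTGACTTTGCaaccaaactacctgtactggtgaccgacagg
PSMD3: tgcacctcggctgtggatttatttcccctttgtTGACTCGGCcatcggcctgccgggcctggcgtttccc
The next 3 hold CCAAT, which in PSME3 lies on the opposite strand and reads ATTGG, 84, 31 and 12 bases before the start.
PSMA2: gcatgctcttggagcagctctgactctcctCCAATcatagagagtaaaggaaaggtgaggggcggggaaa
PSMC2: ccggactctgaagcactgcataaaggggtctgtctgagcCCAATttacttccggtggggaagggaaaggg
PSME3: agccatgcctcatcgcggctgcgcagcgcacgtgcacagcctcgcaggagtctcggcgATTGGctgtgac
The windows lie at chr15:78540630-78540699 for PSMA4, chr17:38752607-38752676 for PSMB3, chr17:39980737-39980806 for PSMD3, chr7:42932219-42932288 for PSMA2, chr7:103347573-103347642 for PSMC2 and chr17:42833327-42833396 for PSME3 (GRCh38.p14), on the minus strand for PSMA2 and on the plus strand for the others.

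The alpha ring, which forms the gate of the core, had 6 kept genes. All 6 were below 0 over all samples, between -0.42 and -0.04, and none passed the test. In prefix 5 their differences lay between -0.002 and 0.199, with 1 of 6 below 0, and in prefix 1 between -0.85 and -0.10, with 6 of 6 below 0. PSMA2, an alpha ring subunit, had log2 levels of 9.43, 9.32 and 9.08 in dox-induced and 9.19 and 9.07 in non-induced samples of prefix 5. In prefix 1 PSMA2 had 8.81, 9.19 and 8.89 in dox-induced and 10.002, 9.25 and 10.17 in non-induced samples. The dox-induced samples of prefix 1 all lay below the non-induced ones, though non-induced sample 2 was only just above, while the prefix 5 groups overlapped. The PSMA2 difference was -0.42 ± 0.21 over all samples (SE, limma adjusted p = 0.338), 0.15 ± 0.26 in prefix 5 (adjusted p = 0.953) and -0.85 ± 0.23 in prefix 1 (adjusted p = 0.0516). The call in prefix 1 therefore sat at the threshold, and PSMA2 passed in 9 of 21 alternative settings. PSMA4, the other alpha gene with wholly separate samples in prefix 1, had a difference of -0.67 ± 0.21 there by its brightest probe (SE, limma adjusted p = 0.0797). The second kept probe of PSMA4 had only -0.08 ± 0.23 there (SE, limma adjusted p = 0.871), so the probes of this gene differed in size.

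**Figure D2:**
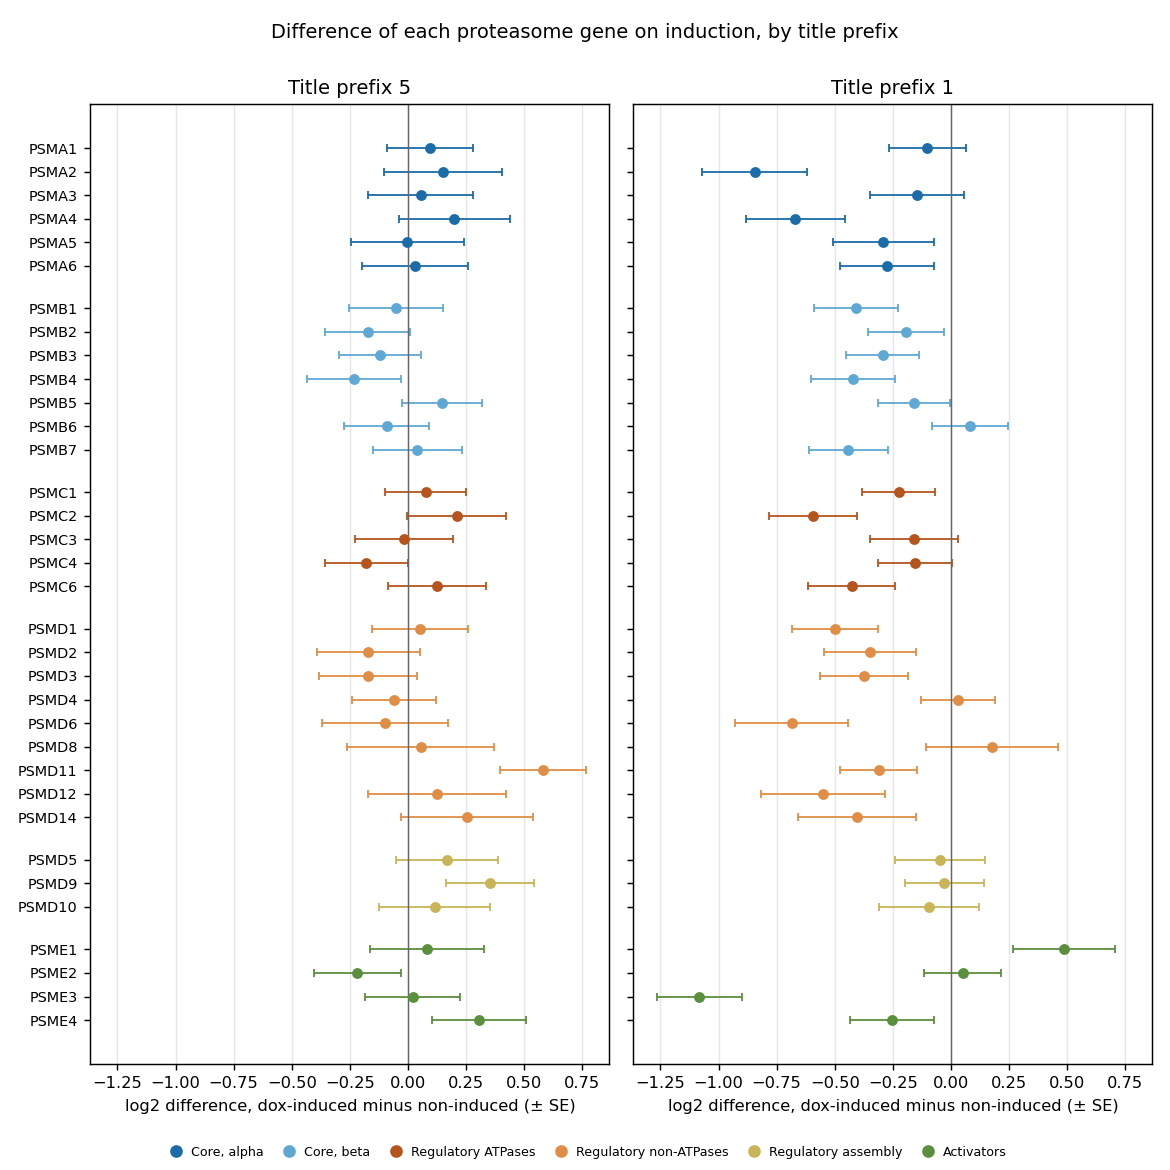
Difference of each of the 34 proteasome genes, dox-induced minus non-induced (log2, points, with the standard error of limma as bars), in title prefix 5 (left) and title prefix 1 (right), coloured by subcomplex. In prefix 5, 13 of 34 genes lie below 0, and in prefix 1, 29 of 34, with PSME3 farthest at -1.08.

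The beta ring carries the cutting sites: PSMB5 cuts after hydrophobic residues, PSMB6 after acidic ones and PSMB7 after basic ones. PSMB5 had 11.66, 11.52 and 11.69 in dox-induced and 11.52 and 11.44 in non-induced samples of prefix 5, and 11.24, 11.23 and 11.38 in dox-induced and 11.39, 11.33 and 11.61 in non-induced samples of prefix 1. Its dox-induced samples were above the non-induced ones in prefix 5 and overlapped them in prefix 1, and the difference over all samples was -0.003 ± 0.130 (SE, 95% interval -0.28 to 0.27, limma adjusted p = 0.993). PSMB6 had 12.98, 12.62 and 12.96 in dox-induced and 12.92 and 12.96 in non-induced samples of prefix 5, and 12.99, 12.98 and 12.90 in dox-induced and 12.96, 12.97 and 12.69 in non-induced samples of prefix 1. The groups overlapped in both prefixes, with 1 low sample in each group, and the difference was 0.002 ± 0.121 (SE, 95% interval -0.26 to 0.26, limma adjusted p = 0.996). PSMB7 had 12.87, 12.49 and 12.90 in dox-induced and 12.77 and 12.66 in non-induced samples of prefix 5, and 12.61, 12.29 and 12.60 in dox-induced and 12.93, 12.88 and 13.03 in non-induced samples of prefix 1. All 3 dox-induced samples of prefix 1 were below the non-induced ones, including non-induced sample 2, and the difference there was -0.44 ± 0.17 (SE, limma adjusted p = 0.133), against 0.04 ± 0.19 in prefix 5 and -0.22 ± 0.14 over all samples (adjusted p = 0.438). Of the 3 catalytic subunits, PSMB7 was the one with separate samples in prefix 1.

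The other beta subunits line the ring and have no cutting site. PSMB4 had the smallest p of the core over all samples, with 12.33, 12.53 and 12.17 in dox-induced and 12.65 and 12.50 in non-induced samples of prefix 5, and 12.06, 11.95 and 12.32 in dox-induced and 12.50, 12.33 and 12.78 in non-induced samples of prefix 1. Dox-induced samples tended to be low in both prefixes, separate in prefix 1 only by a narrow margin, and the difference was -0.32 ± 0.14 over all samples (SE, limma adjusted p = 0.260), -0.23 ± 0.20 in prefix 5 and -0.42 ± 0.18 in prefix 1 (adjusted p = 0.173). PSMB3 had 12.26, 12.29 and 12.31 in dox-induced and 12.26 and 12.56 in non-induced samples of prefix 5, and 12.27, 12.22 and 12.24 in dox-induced and 12.51, 12.39 and 12.71 in non-induced samples of prefix 1. Its dox-induced samples were tightly grouped (SD 0.03, n = 6) and the non-induced ones spread upward, with a difference of -0.22 ± 0.12 (SE, limma adjusted p = 0.367). PSMB1 had 12.57, 12.31 and 12.59 in dox-induced and 12.52 and 12.57 in non-induced samples of prefix 5, and 12.27, 12.31 and 11.99 in dox-induced and 12.68, 12.29 and 12.82 in non-induced samples of prefix 1. Its groups overlapped in both prefixes, and the difference was -0.24 ± 0.14 over all samples (SE, limma adjusted p = 0.431).

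In the regulatory particle, the ATPases unfold the substrate and drive it into the core. All 5 kept ATPase genes were below 0 over all samples, between -0.24 and -0.09, as in prefix 1, between -0.59 and -0.16, and 2 of 5 were below 0 in prefix 5. PSMC2 had 11.38, 11.73 and 11.47 in dox-induced and 11.34 and 11.30 in non-induced samples of prefix 5, and 11.26, 11.03 and 11.27 in dox-induced and 11.89, 11.40 and 12.04 in non-induced samples of prefix 1. The dox-induced samples were all above the non-induced ones in prefix 5 and all below in prefix 1. The difference was 0.21 ± 0.21 in prefix 5 (SE, limma adjusted p = 0.923) and -0.59 ± 0.19 in prefix 1 (adjusted p = 0.0819). PSMC6 had 10.92, 11.06 and 10.73 in dox-induced and 10.81 and 10.75 in non-induced samples of prefix 5, and 10.54, 10.49 and 10.77 in dox-induced and 11.13, 10.67 and 11.28 in non-induced samples of prefix 1. Its groups overlapped in both prefixes, and the prefix 1 difference was -0.43 ± 0.19 (SE, limma adjusted p = 0.186).

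Of the 9 kept non-ATPase subunits, 6 were below 0 over all samples, 4 in prefix 5 and 7 in prefix 1. PSMD1 and PSMD2 are the large scaffold proteins at the base of the regulatory particle. PSMD1 had 11.51, 12.08 and 11.74 in dox-induced and 11.61 and 11.84 in non-induced samples of prefix 5, and 11.39, 11.61 and 11.40 in dox-induced and 11.77, 12.01 and 12.12 in non-induced samples of prefix 1. The groups overlapped in prefix 5, and in prefix 1 all dox-induced samples were lower, at -0.50 ± 0.19 (SE, limma adjusted p = 0.119). PSMD2 had 11.31, 10.92 and 10.78 in dox-induced and 11.11 and 11.23 in non-induced samples of prefix 5, and 10.63, 11.23 and 10.70 in dox-induced and 11.26, 11.18 and 11.17 in non-induced samples of prefix 1. Dox-induced samples spread widely (SD 0.28, n = 6) and non-induced ones little (SD 0.06, n = 5), with overlap in both prefixes and a difference of -0.26 ± 0.14 over all samples (SE, limma adjusted p = 0.384).

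PSMD3, PSMD6 and PSMD11 belong to the lid, the part that holds the ubiquitin-removing enzyme. PSMD6 had 11.47, 11.72 and 11.04 in dox-induced and 11.34 and 11.69 in non-induced samples of prefix 5, and 11.15, 11.17 and 10.50 in dox-induced and 11.65, 11.31 and 11.92 in non-induced samples of prefix 1. The prefix 1 samples were separate, with dox-induced sample 3 lowest, and the difference was -0.69 ± 0.24 there (SE, limma adjusted p = 0.106) and -0.40 ± 0.20 over all samples (adjusted p = 0.321). The second kept probe of PSMD6 had a difference of -0.53 over all samples, in the same direction. PSMD3 had 7.005, 7.32 and 7.51 in dox-induced and 7.44 and 7.46 in non-induced samples of prefix 5, and 7.10, 7.21 and 7.16 in dox-induced and 7.23, 7.53 and 7.83 in non-induced samples of prefix 1. Its samples were separate in prefix 1 by a narrow margin, and the difference over all samples was -0.28 ± 0.14 (SE, limma adjusted p = 0.330). PSMD11 had 6.77, 6.99 and 7.11 in dox-induced and 6.23 and 6.53 in non-induced samples of prefix 5, and 6.48, 6.75 and 6.70 in dox-induced and 6.98, 6.94 and 6.95 in non-induced samples of prefix 1. Its dox-induced samples were wholly above in prefix 5, at 0.58 ± 0.18 (SE, limma adjusted p = 0.785), and wholly below in prefix 1, at -0.31 ± 0.17 (adjusted p = 0.267). The assembly chaperones PSMD5, PSMD9 and PSMD10, counted here with the regulatory particle, had differences between 0.00 and 0.14 over all samples, and PSMD14, the ubiquitin-removing enzyme, had -0.12 ± 0.20 (SE, limma adjusted p = 0.813).

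**Figure D3:**
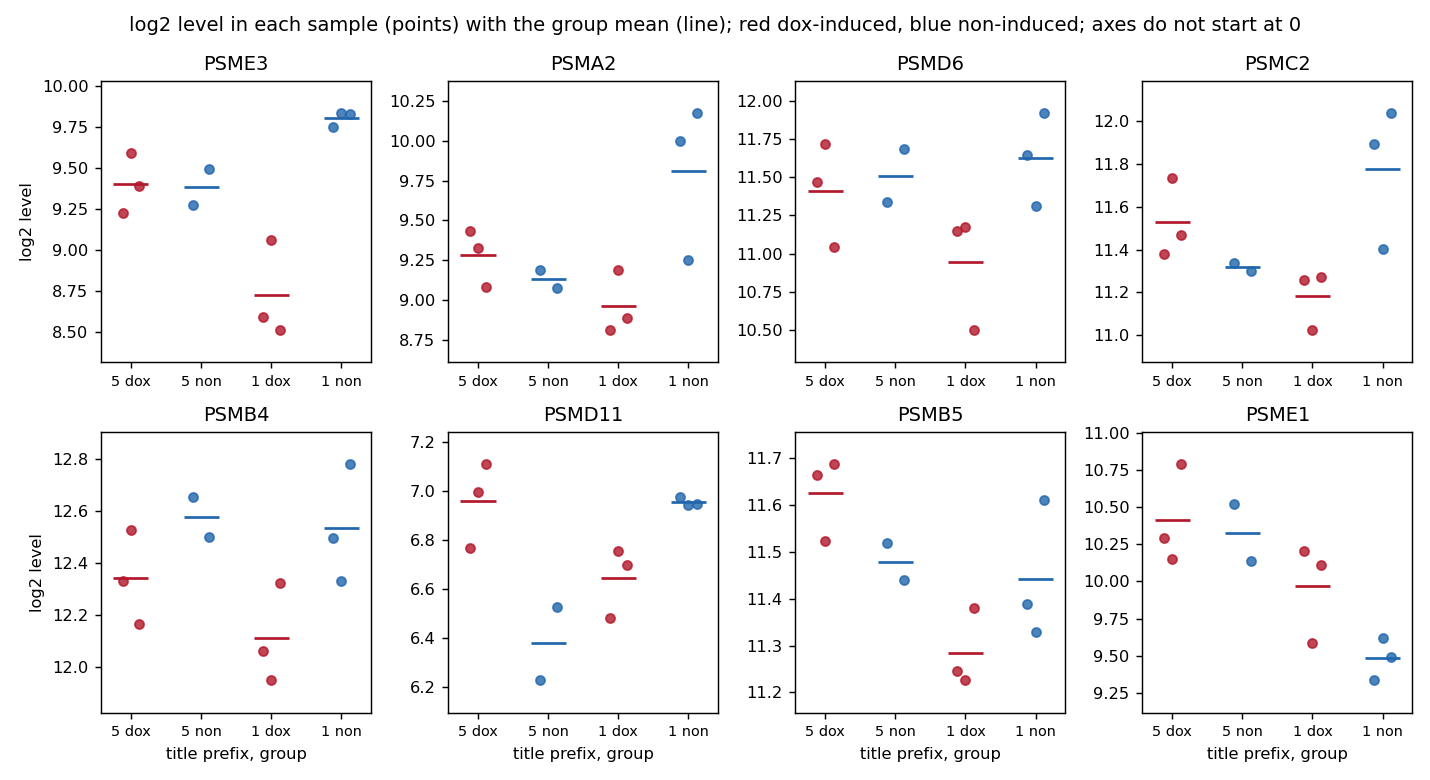
log2 level of 8 proteasome genes in each sample (points, red dox-induced, blue non-induced, with the group mean as a line) by title prefix, on axes that do not start at 0. PSME3 is lower in the 3 dox-induced than in the 3 non-induced samples of prefix 1 and overlaps in prefix 5, while PSMC2 and PSMD11 separate in opposite directions in the prefixes.

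The activators did not share a direction. PSME3, which forms a cap found mainly in the nucleus that stimulates degradation without ubiquitin, had 9.23, 9.59 and 9.39 in dox-induced and 9.27 and 9.49 in non-induced samples of prefix 5, and 8.59, 9.06 and 8.51 in dox-induced and 9.75, 9.83 and 9.83 in non-induced samples of prefix 1. All 3 non-induced samples of prefix 1 were high, sample 2 included, and dox-induced samples 1 and 3 were the lowest of the series. PSME3 fell in prefix 1, by 2.12-fold (log2 -1.08 ± 0.18, SE, limma adjusted p = 0.0171), with its second probe at -1.06 (adjusted p = 0.0187). In prefix 5 the difference was 0.02 ± 0.20 (SE, 95% interval -0.42 to 0.46, limma adjusted p = 0.996), and over all samples -0.57 ± 0.20 (adjusted p = 0.183). The prefix 1 call was lost without any 1 of non-induced samples 1 and 3 and dox-induced samples 1 and 3 (limma adjusted p = 0.0537 to 0.0750). The difference itself stayed between -1.11 and -0.98 in these settings. The probes called on the whole array numbered 1, 41, 3 and 2 there, against 698 with every sample. Without both non-induced samples 1 and 3, which leaves 1 non-induced sample in prefix 1, the PSME3 difference was -1.11.

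PSME1 and PSME2 form the interferon-inducible cap linked to antigen processing. PSME1 had 10.29, 10.15 and 10.79 in dox-induced and 10.52 and 10.14 in non-induced samples of prefix 5, and 10.21, 9.59 and 10.11 in dox-induced and 9.34, 9.62 and 9.49 in non-induced samples of prefix 1. Dox-induced samples 1 and 3 were above all non-induced samples of prefix 1 and sample 2 was not, at 0.48 ± 0.22 (SE, limma adjusted p = 0.198). PSME2 had 9.08, 9.08 and 9.29 in dox-induced and 9.23 and 9.51 in non-induced samples of prefix 5, and 8.96, 8.77 and 9.04 in dox-induced and 9.06, 8.73 and 8.82 in non-induced samples of prefix 1. The groups overlapped, and the difference was -0.03 ± 0.15 over all samples (SE, 95% interval -0.36 to 0.29, limma adjusted p = 0.938). PSME4, the large single-chain cap, had -0.03 ± 0.16 over all samples (SE, limma adjusted p = 0.951).

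Whether the effect of induction differed between the prefixes was tested as the effect in prefix 5 minus that in prefix 1. It was above 0 in 28 of 34 genes (82.4%, against 50.4% of all genes), with a median of 0.29 for the core and 0.30 for the regulatory particle, against 0.01 for all genes. By limma 0 of 46 probes passed (0.0209% of all kept probes), and 6 were above 0 at an unadjusted p under 0.05, where 6.15% of all kept probes were. The largest was PSME3, at 1.10 ± 0.27 (SE, unadjusted p = 0.00143, adjusted p = 0.231), followed by PSMA2 at 1.00 ± 0.34 (adjusted p = 0.318) and PSMD11 at 0.89 ± 0.25 (adjusted p = 0.267). So no proteasome gene was shown to differ in its response between the prefixes. Samples were wholly separate in prefix 5 in 4 genes above (PSMB5, PSMC2, PSMD11 and PSME4, where 12.6% of all genes were above) and 1 below (PSMC4, where 10.9% were below). In prefix 1 they were wholly below in 12 of 34 genes (35.3%, against 14.6% of all genes) and wholly above in 0, where 15% of all genes were above.

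**Figure D4:**
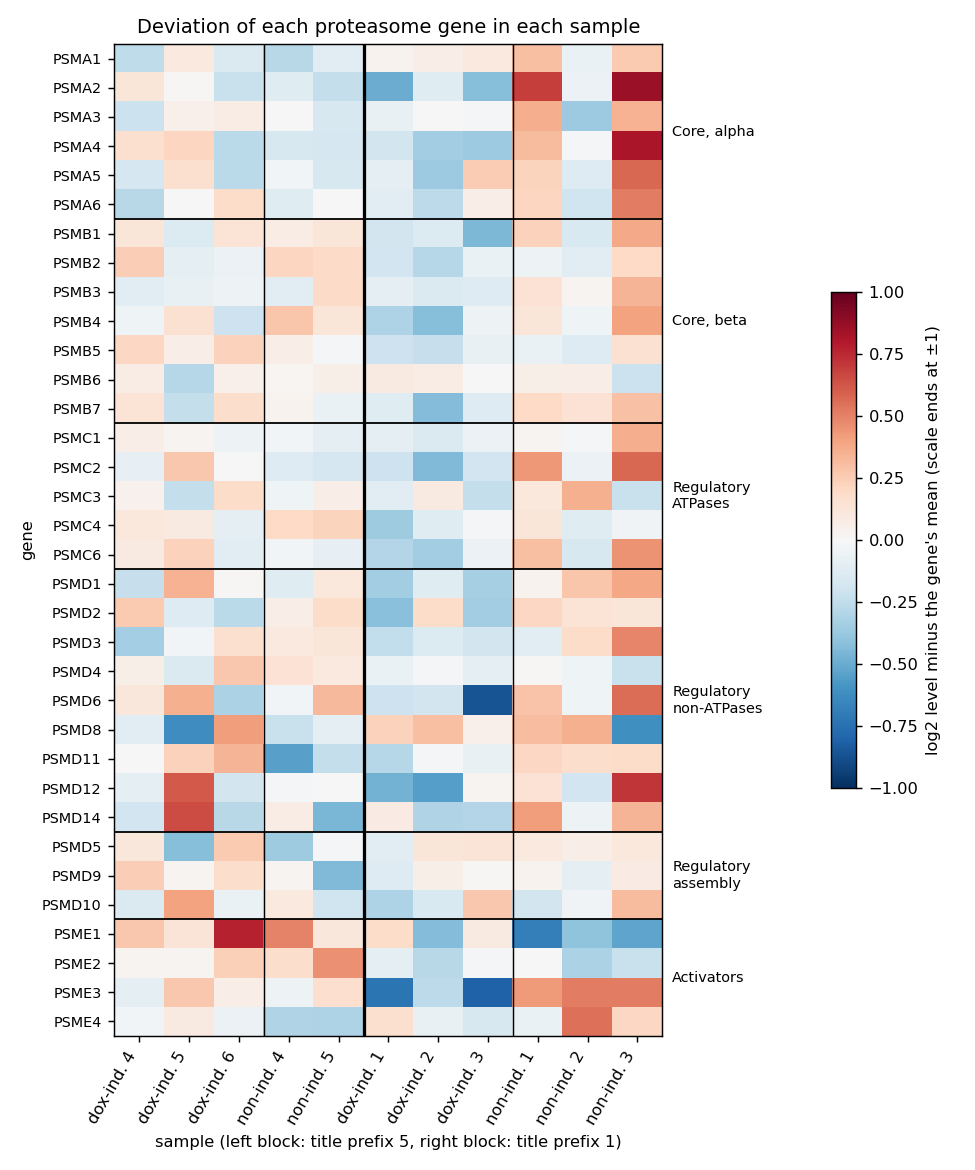
Deviation of each of the 34 proteasome genes from its own mean over 11 samples (log2, red above and blue below, colour scale ending at ±1), with genes in rows by subcomplex and samples in columns, prefix 5 in the left block and prefix 1 in the right, dox-induced left of non-induced. Non-induced sample 3 is above the mean in 27 of 34 genes and non-induced sample 1 in 28, while the dox-induced samples of prefix 1 are above it in 6, 7 and 10.

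The levels of the prefixes were also compared at equal induction. Prefix 5 minus prefix 1 had a median of -0.03 for the core, 0.03 for the regulatory particle and 0.27 for the activators, against -0.003 for all genes, and 0 of 46 probes passed by limma (0.0767% of all kept probes). At an unadjusted p under 0.05, 2 were higher, against 5.91% of all kept probes, and 2 lower, against 5.47%. PSME1 was at 0.62 ± 0.17 (SE, limma adjusted p = 0.203) and PSME2 at 0.35 ± 0.13 (adjusted p = 0.322), the 2 genes with the smallest p by their brightest probe. All 6 alpha genes were lower in prefix 5, between -0.25 and -0.06, and 5 of 7 beta genes were higher.

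The core and the regulatory particle were set against each other as a difference of medians, with no test. The core median minus the regulatory median was -0.06 over all samples, -0.05 in prefix 5 and 0.02 in prefix 1. With 1 sample left out it ran from -0.117 to 0.017 in prefix 5, above 0 without non-induced sample 4, and from -0.144 to 0.186 in prefix 1, below 0 without non-induced sample 2, dox-induced sample 1 or dox-induced sample 3. The authors' values gave -0.062 in prefix 1, so the sign was not settled in either prefix. The same difference taken within each sample ran from -0.07 to 0.03 in the dox-induced and was -0.01 and 0.02 in the non-induced samples of prefix 5. It ran from -0.11 to 0.09 in the dox-induced and from -0.03 to 0.10 in the non-induced samples of prefix 1. The sign varied between samples of 1 group.

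Some members could not be judged. PSMA8, an alpha subunit of the testis, and PSMB11, the beta subunit of the thymus, were detected on 0 arrays. Of 10 genes with several kept probes, 8 had all probes on the same side of 0 over all samples, and PSMA3 and PSMD10 did not. PSMC3IP, a recombination factor, and PSME3IP1, which binds PSME3, were kept though they are no subunits, with differences of -0.18 ± 0.13 and -0.10 ± 0.14 (SE, limma adjusted p = 0.492 and 0.773). The antisense gene PSMD6-AS2 was not kept.

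Of 35 listed partners of the proteasome 26 were kept, and none passed the test by limma over all samples (0.0507% of all genes). With no adjustment, 1, PSMB8, was higher and 2 were lower at p under 0.05, against 8.54% and 7.51% of all genes. The only kept probe of PSMB8 was detected in 5 of 6 dox-induced and 2 of 5 non-induced samples. It met the detection filter mainly through the dox-induced samples, so its call is a description only. Taking every sample, 14 partners were below 0 (53.8%, against 48.3% of all genes). In prefix 5 there were 4 (15.4% against 48.4%) and in prefix 1 there were 18 (69.2% against 50%). The medians were -0.09, 0.14 and -0.23. Samples in prefix 1 were wholly below in 4 partners (15.4%, against 14.6% of all genes) and wholly above in 1, PSMB8. In prefix 5 they were wholly below in 0 and wholly above in 5, where 12.6% of all genes were above. POMP, which matures the core particle, had 12.02, 12.29 and 11.89 in dox-induced and 11.98 and 12.14 in non-induced samples of prefix 5, and 11.69, 11.61 and 11.88 in dox-induced and 12.62, 12.03 and 12.64 in non-induced samples of prefix 1. Non-induced samples 1 and 3 were high here too, and the prefix 1 difference was -0.70 ± 0.20 (SE, limma adjusted p = 0.0556). UCHL5, a ubiquitin-removing enzyme on the regulatory particle, had 8.46, 8.77 and 8.42 in dox-induced and 8.40 and 8.50 in non-induced samples of prefix 5, and 8.14, 8.19 and 8.44 in dox-induced and 8.96, 8.37 and 9.30 in non-induced samples of prefix 1, with the same samples high, at -0.62 ± 0.22 (SE, limma adjusted p = 0.106).

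SEM1, a small subunit of the lid, had 13.68, 13.48 and 13.30 in dox-induced and 13.61 and 13.72 in non-induced samples of prefix 5, and 13.41, 13.12 and 13.54 in dox-induced and 13.74, 13.59 and 13.83 in non-induced samples of prefix 1. The difference was below 0 in both prefixes, at -0.27 ± 0.13 over all samples (SE, limma adjusted p = 0.305). A less bright probe of SEM1, named after its values were seen, had all dox-induced below all non-induced samples, at -0.53 ± 0.14 (SE, limma adjusted p = 0.120). A less bright probe of PSMG1, a chaperone of core assembly also named after its values were seen, passed in prefix 1 at -0.88 ± 0.21 (SE, limma adjusted p = 0.0357), while its brightest probe had -0.48 ± 0.25 (adjusted p = 0.249).

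The immunoproteasome subunits replace the catalytic beta subunits in immune and cytokine-treated cells. PSMB10 had 9.73, 9.62 and 9.65 in dox-induced and 9.68 and 9.64 in non-induced samples of prefix 5, and 9.39, 9.66 and 9.18 in dox-induced and 9.99, 10.03 and 9.77 in non-induced samples of prefix 1, with the prefix 1 samples separate, at -0.52 ± 0.17 (SE, limma adjusted p = 0.0822), and 0.01 ± 0.19 in prefix 5. PSMB8 was detected in 5 of 6 dox-induced and 2 of 5 non-induced samples by its only kept probe. It had 5.94, 6.10 and 7.82 in dox-induced and 6.09 and 6.30 in non-induced samples of prefix 5, and 6.92, 5.38 and 5.93 in dox-induced and 5.01, 4.96 and 5.27 in non-induced samples of prefix 1. Dox-induced samples 1 and 6 were highest, and the difference was 0.83 ± 0.38 over all samples (SE, limma adjusted p = 0.296). This probe met the detection filter mainly through the dox-induced samples, and the other PSMB8 probes were detected on no array. The PSMB8 difference is therefore given as a description only. PSMB9 was detected on 0 arrays. VCP, which extracts ubiquitinated proteins for degradation, had 11.34, 10.94 and 11.54 in dox-induced and 11.05 and 11.22 in non-induced samples of prefix 5, and 11.58, 11.72 and 11.38 in dox-induced and 11.27, 11.40 and 10.86 in non-induced samples of prefix 1. The groups overlapped in both prefixes, with a difference of 0.26 ± 0.16 over all samples (SE, limma adjusted p = 0.427). NFE2L1, the activator of proteasome genes, had 10.41, 10.36 and 10.42 in dox-induced and 10.10 and 10.03 in non-induced samples of prefix 5, and 10.63, 9.93 and 11.29 in dox-induced and 10.24, 9.91 and 10.59 in non-induced samples of prefix 1. Its dox-induced samples were above in prefix 5 and overlapped in prefix 1, at 0.33 ± 0.20 over all samples (SE, limma adjusted p = 0.437).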

How the data were processed

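Total RNA of 11 samples of 1 cell line was measured on Illumina bead arrays. The authors deposited a table of raw probe intensity with a detection p-value per probe and sample, per the file headers, and a matrix of normalised intensity on a linear scale. Limma is the one tool named in the submitters' processing notes, with no version. From the raw table, the background was estimated from the detection p-value, an offset of 16 was added and values were quantile normalised and log2 transformed (neqc, limma 3.58.1, statmod 1.5.0, R 4.3.3). The 14338 probes detected (p below 0.01) in 5 or more samples were kept. Differences were fitted with limma on all kept probes, over all samples and in a model of induction within title prefix, with Benjamini-Hochberg adjustment over all kept probes and a threshold of 0.05. The number of arrays limits the precision, and p-values measure the spread between these samples. Fold changes are on the scale with the offset, which understates changes of dim genes. 28098 probes had 1 annotated symbol, 13 several and 20692 none here. Values per sample were given for the catalytic subunits, for the genes of smallest p in each subcomplex and in the partner list, for members past the threshold, and for the smallest p in the tests between prefixes. Alternatives were the authors' normalised values, no background correction, median scaling, other detection filters, the mean of all probes of a gene, a replicate block, array weights and leaving out each sample. Scripts were tested on simulated data. Members and lists were chosen with earlier results of these data known.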

Additional observations from a re-analysis of the deposited data

Results flagged for a closer look

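PSMB6 had 1 low sample in each group. Dox-induced sample 5, at 12.62, lay apart from the other 5, which ran from 12.90 to 12.99, and non-induced sample 3, at 12.69, lay apart from the other 4, which ran from 12.92 to 12.97. These were 2 of 48 groups of samples examined in this way, and chance alone sets about 1 in 20 apart.

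PSMC2 and PSMD11 had all dox-induced samples above the non-induced ones in prefix 5 and all below in prefix 1. The effect in prefix 5 minus that in prefix 1 was 0.80 for PSMC2 (limma adjusted p = 0.322) and 0.89 for PSMD11 (limma adjusted p = 0.267), so neither difference passed the test.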

How the results depend on the processing

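Of 318 summary values under other settings 279 stayed close to the reported ones, medians within 1 standard deviation between samples and counts within 1.5 times. Of 714 values of single genes 662 kept their direction and their side of the threshold, though not their size: PSMA2 over all samples ran from -0.547 to -0.048. Part of these values could not move. A difference within 1 prefix keeps its size when a sample of the other prefix is left out. Counts that were 0 both in the main test and under another setting are also among the values that stayed close. These shares therefore do not measure stability. No setting gave a proteasome probe past the threshold over all samples, in prefix 5 or between the prefixes in level. The L1TD1 difference with the replicate block was -0.852, with an exact permutation p of 0.0625, the smallest that 5 pairs allow. The labels do not state that equal replicate numbers pair samples, and the main tests did not pair them. The design text describes clones with an induced and a non-induced sample each. Within each prefix, the title numbers of same-numbered samples also rise in step between the groups. Deviations of same-numbered samples correlated between -0.19 and 0.40, over 0.1 in 1 of 5 pairs, with 1 of 5 samples closest to its own number. Scaling to a common median moved the median of all genes to -0.121, and to -0.221 in prefix 1. The core was then -0.37 over all samples and -0.591 in prefix 1 (-0.25 and -0.37 relative to all genes), the regulatory particle -0.27 and -0.525 (-0.149 and -0.304 relative to all genes), the core in prefix 5 -0.037 and the core minus the regulatory particle in prefix 1 -0.066. That last difference was -0.062 with the authors' values and -0.062 without background correction, 0.011 over all samples with the mean of all probes, and -0.117 in prefix 5 with the replicate block. In prefix 5 the core was -0.034 with the replicate block and -0.027 with array weights, which gave 0.017 for the regulatory particle. Without non-induced samples 1 and 3 together, which leaves 1 non-induced sample in prefix 1, the core there was -0.073 and the regulatory particle -0.137. In prefix 1 the proteasome probes past the threshold numbered 5 of 46 with the authors' values (10.9%, against 6.3% of all kept probes), 5 without background correction (10.9% against 6.37%), 4 with median scaling (8.7% against 4.76%), 6 with the replicate number as a random block (13% against 10.5%) and 9 with array weights (19.6% against 18.6%). The share of proteasome probes in prefix 1 was not above that of all kept probes in every setting. They numbered 2 of 46 with the replicate block (4.35% against 9.46%) and without dox-induced sample 5 (4.35% against 6.54%). Without dox-induced sample 6 they numbered 3 (6.52% against 7.94%), and without non-induced sample 2 they numbered 6 (13% against 5.84%). The test between the prefixes gave 1 with array weights (2.17% against 1.16%). Leaving out 1 sample gave 0 to 6 such probes in prefix 1, and 0 when the sample left out was replicate 1 or 3 of either group, where 1 to 41 of all 14338 probes passed. Over these runs the core lay between -0.462 and -0.116 in prefix 1 and between -0.034 and 0.035 in prefix 5, the regulatory particle in prefix 5 between -0.005 and 0.104, and the core minus the regulatory particle between -0.144 and 0.186 in prefix 1 and between -0.117 and 0.017 in prefix 5. Single genes that turned had adjusted p-values of 0.328 or more. PSMB5 was 0.005 with array weights, 0.025 without both samples and -0.049 to 0.043 without 1 sample. PSMB6 was -0.22 with median scaling, -0.009 with the block, -0.007 with array weights, -0.048 without both samples and -0.051 to 0.059 without 1 sample, and in prefix 1 -0.263 with median scaling, -0.014 without both samples and -0.01 to 0.13 without 1 sample. PSMC2 and PSMC6 were each 0.009 without both samples, PSMD11 -0.028 with median scaling and -0.048 to 0.14 without 1 sample, and PSME2 -0.119 to 0.075 without 1 sample. In prefix 1 PSME2 was -0.192 with median scaling, -0.031 with array weights and -0.02 to 0.142 without 1 sample. The cause of these changes was not tested.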
